A study of Mus musculus with 36 samples.

Results

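The late response of C3H mouse lung to NNK was described across all genes, from 8 of the 36 arrays of a study of the strains A/J and C3H. NNK is the nicotine-derived nitrosamine of tobacco smoke. The comparison set 4 arrays of NNK-treated C3H lung, 2 taken 9 weeks and 2 taken 12 weeks after exposure, against 4 arrays of untreated C3H lung of the same weeks. Treated mice had been injected with NNK at 100 mg/kg weekly, 4 times in all, and the untreated mice are labelled as having had no treatment, so no vehicle injection is described for them. The labels give neither the sex nor the age of the mice, and the substrain of C3H is not named. Lungs were taken while mature tumours had not yet formed. The 10 other C3H arrays, of weeks 0, 3 and 6, entered only as a measure of spread and, for weeks 3 and 6, as the early response. Whole-lung RNA was hybridised to Affymetrix Mouse Gene 1.0 ST arrays. The labels do not state that the 2 arrays of each group are different mice, so every p-value rests on array-to-array spread that could be technical only.

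NNK is oxidised by cytochrome P450 enzymes of airway and alveolar cells to products that methylate and pyridyloxobutylate DNA. Such lesions activate the transcription factor p53, which raises genes of cell cycle arrest, repair and cell death. Cells that divide again afterwards express a shared set of S phase and mitosis genes. C3H mice form fewer lung tumours after carcinogens than A/J mice, which are a classical susceptible strain.

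All values below are log2(intensity + 16) after quantile normalization, and a change is the NNK mean minus the untreated mean on that scale, averaged over weeks 9 and 12, with the standard error (SE) of the fit. Of 19938 named genes, 14953 passed a filter on dim probe sets and were tested. The arrays were alike: the 8 late arrays correlated at 0.987 to 0.995 with each other. The median deposited intensity of the 18 C3H arrays lay between 300.2 and 325.7, and array data give no read depth, so the number of arrays limits the precision. Defining lung markers were bright on all 8 arrays, with the alveolar type 2 gene Sftpc at 13.90 to 14.01, the alveolar type 1 gene Ager at 13.21 to 13.40 and the club cell gene Scgb1a1 at 13.69 to 13.95. Heart and liver genes varied between arrays and are given beside the results they touch.

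One gene passed the threshold of an adjusted p of 0.05. Psrc1, which encodes a microtubule-binding protein of the mitotic spindle and is listed among p53-responsive genes, rose by 0.61 ± 0.054 (SE), or 1.53-fold, with an adjusted p of 0.000352 in limma. That is 0.00669% of the genes tested. At an unadjusted p under 0.05 there were 568 genes, or 3.8%. This is less than the share of 0.05 that such a cutoff gives on average where no gene changes. The Psrc1 level was 7.88 and 7.86 on the untreated arrays of week 9 and 7.98 and 7.87 on those of week 12. It was 8.70 and 8.44 on the NNK arrays of week 9 and 8.45 and 8.46 on those of week 12. The groups do not overlap: every NNK array lay above every untreated array, and array 1 of NNK week 9 stood above the other NNK arrays. The mean was 8.51 ± 0.126 (SD, n = 4) after NNK and 7.90 ± 0.0567 (SD, n = 4) without it. No other gene passed, and the values of other genes below are descriptions of size and overlap.

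Changes were small over the whole array. The median absolute change was 0.036, and only 9 genes differed by 1.5-fold or more in either direction. Apart from Psrc1 these were Ltf, Alb, Snord118, Fcrls and an immunoglobulin kappa variable gene on the higher side, and Snord14e, Hspa1a and another kappa variable gene on the lower side, and none of the 8 passed the test.

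**Figure D1:**
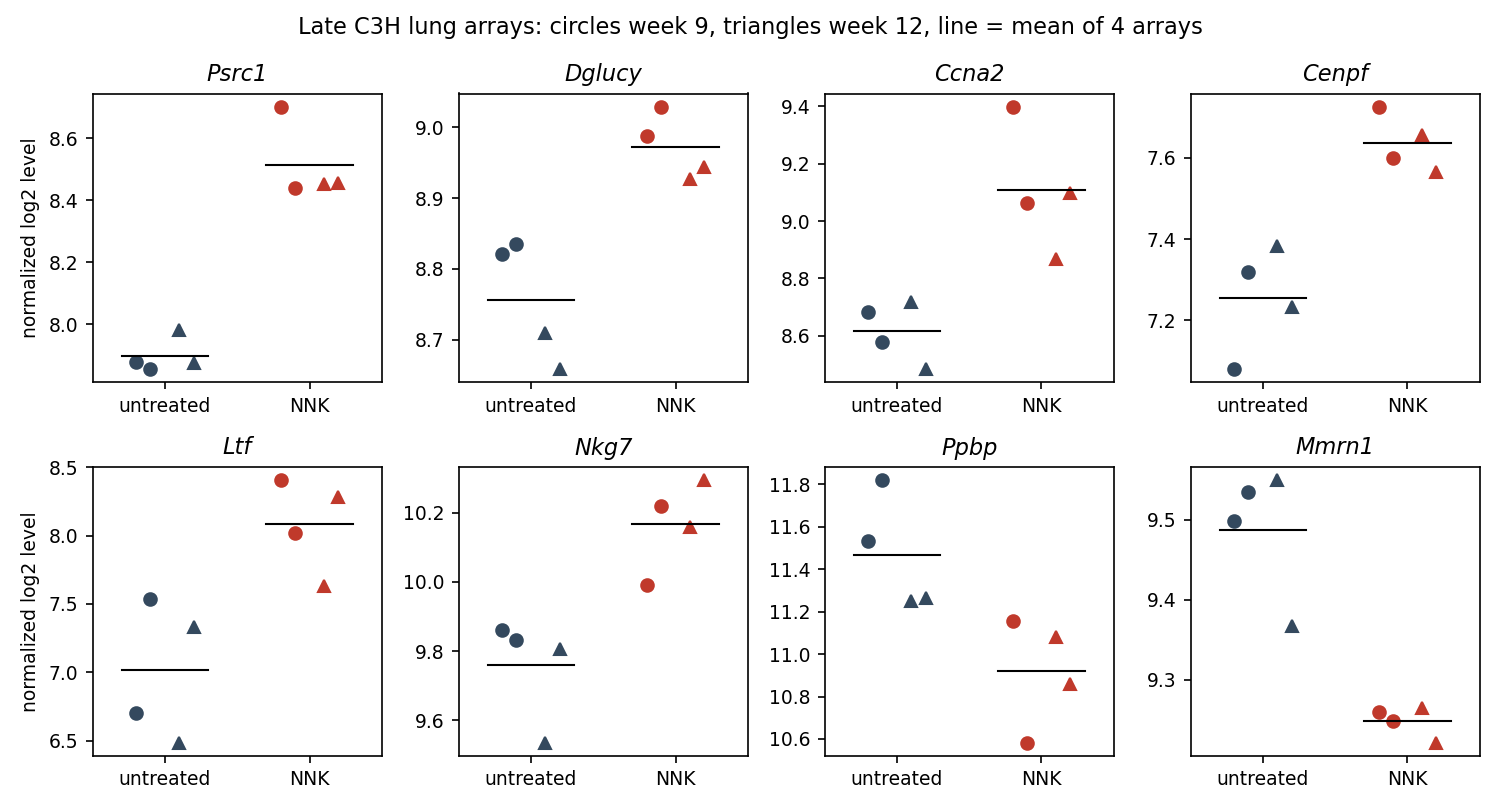
Normalized log2 level (vertical axis) of 8 genes on the 8 late C3H arrays, untreated in dark blue and NNK in red, circles for week 9 and triangles for week 12, with a line at the mean of 4 arrays. In each of the 8 genes the NNK and untreated arrays do not overlap; Psrc1, with means of 8.51 and 7.90, is the one that passed the test.

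The p53 list was the first of the gene groups. Of 42 listed genes 38 were tested, 1 rose (Psrc1), none fell, and 23 were higher and 15 lower after NNK. Their median change was 0.033, beside 0.00096 for all genes tested, of which 50.8% were higher. The list was written with earlier results of these data known and is no independent evidence of its direction. Its median lay between 0.0053, without array 2 of untreated week 9, and 0.052, without array 1 of that group. Groups did not overlap for 4 members, with Psrc1, Dglucy and Ddit4l higher and Tigar lower. Over all genes tested, the 4 NNK arrays lay above the 4 untreated ones for 0.976% and below them for 0.889%, together 1.87%.

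Dglucy, which encodes a mitochondrial D-glutamate cyclase, had 8.82, 8.84, 8.71 and 8.66 on the untreated arrays and 8.99, 9.03, 8.93 and 8.94 on the NNK arrays, both in the order of weeks 9 and 12. The difference was 0.22 ± 0.040 (SE), with an adjusted p of 0.569 in limma. Every NNK array was above every untreated array at both weeks. Ddit4l, an inhibitor of mTOR complex 1 signalling, had 7.65, 7.59, 7.50 and 7.64 on the untreated and 8.0, 7.89, 7.79 and 7.75 on the NNK arrays, a difference of 0.26 ± 0.057 (SE). Ccng1, the p53 target cyclin G1, had 12.00, 12.04, 12.10 and 11.99 without NNK and 12.31, 12.19, 12.20 and 12.06 with it. Its difference of 0.16 ± 0.047 (SE) did not pass, and array 2 of NNK week 12 lay within the untreated range. Mdm2, the ubiquitin ligase that degrades p53, differed by 0.053 and its groups overlapped.

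The 250 bases upstream of the annotated start of 4 genes are shown because they belong to the gene that passed the test, to a classical p53 target beside it, and to a pair of mitosis genes of the next group. Sequences are RefSeq's on GRCm38.p6, read 5′ to 3′ on the gene's strand, and capitals mark matches on either strand to the p53 half-site consensus, to TTTGAA (the core of the cell cycle homology region) or to CCAAT (the box bound by NF-Y). The p53 half-site was searched as its consensus of 10 letters. Matches of different motifs may share bases, and a match is a description of letters.
Psrc1, chr3:108383554-108383803, plus strand, the first of 2 starts in the table: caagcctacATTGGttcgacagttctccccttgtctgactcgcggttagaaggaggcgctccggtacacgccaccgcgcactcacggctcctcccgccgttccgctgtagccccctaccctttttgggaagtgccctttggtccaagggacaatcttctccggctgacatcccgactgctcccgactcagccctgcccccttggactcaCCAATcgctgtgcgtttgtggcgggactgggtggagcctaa
Ccng1, chr11:40755287-40755536, minus strand: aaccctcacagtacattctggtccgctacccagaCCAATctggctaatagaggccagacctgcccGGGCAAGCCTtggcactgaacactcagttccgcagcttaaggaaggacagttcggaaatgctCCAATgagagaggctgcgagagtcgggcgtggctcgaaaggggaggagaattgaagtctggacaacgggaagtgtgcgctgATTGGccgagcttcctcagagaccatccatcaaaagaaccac
Ccnb2, chr9:70421555-70421804, minus strand: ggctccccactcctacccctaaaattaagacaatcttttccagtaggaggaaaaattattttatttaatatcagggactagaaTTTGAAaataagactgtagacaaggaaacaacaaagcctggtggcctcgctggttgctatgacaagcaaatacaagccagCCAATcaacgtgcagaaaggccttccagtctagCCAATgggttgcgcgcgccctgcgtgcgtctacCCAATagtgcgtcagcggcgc
Ube2c, chr2:164769679-164769928, plus strand: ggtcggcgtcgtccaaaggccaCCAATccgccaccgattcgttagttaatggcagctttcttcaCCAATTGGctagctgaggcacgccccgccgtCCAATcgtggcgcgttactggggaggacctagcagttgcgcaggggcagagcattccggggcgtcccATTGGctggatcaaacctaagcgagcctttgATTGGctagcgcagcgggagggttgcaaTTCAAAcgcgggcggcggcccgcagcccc
The Psrc1 window held 2 CCAAT boxes and no p53 half-site, and the Ccng1 window held 1 half-site and 3 CCAAT boxes. The Ccnb2 window held 1 TTTGAA and 3 CCAAT boxes, and the Ube2c window 1 TTTGAA and 6 CCAAT boxes. One upstream window per gene was found for 11825 of the genes tested, of which 6.33% held a half-site, 11.1% TTTGAA and 35.1% CCAAT. Of the 46 tested proliferation genes 37 had a window, and CCAAT was in 26 of these, or 70.3%, TTTGAA in 9 and a half-site in 4.

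Genes of proliferation were higher after NNK without any of them passing the test. All 46 tested members, of 57 listed, were above 0, with a median change of 0.23 beside 0.00096 for all genes. The filter used the mean over all 36 arrays, and without it 56 members on the array gave 56 higher and a median of 0.23. Groups did not overlap for 12 members, all higher, where 0.976% of all genes lay higher in that way, and 26 members had an unadjusted p under 0.05, where 3.8% of all genes did. The changes ran from 0.0029 to 0.49 and were above 0 at both weeks for 39 members. The list was chosen with earlier results of these data known. Without array 1 of NNK week 9 the median was 0.15, with 40 of 46 higher, and without array 2 of NNK week 12 it was 0.14, with 40 of 46 higher.

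Ccna2, the cyclin of S phase and G2, had 8.68, 8.58, 8.72 and 8.49 on the untreated arrays and 9.40, 9.06, 8.87 and 9.10 on the NNK arrays. The difference was 0.49 ± 0.106 (SE), with an adjusted p of 0.702 in limma. Array 1 of NNK week 9 was the highest and array 1 of NNK week 12 the lowest of the NNK arrays, and all 4 were above the untreated range. Cenpf, a kinetochore protein, had 7.08, 7.32, 7.38 and 7.23 without NNK and 7.73, 7.60, 7.66 and 7.57 with it, a difference of 0.38 ± 0.083 (SE). Ccnb2, a mitotic cyclin, differed by 0.35 ± 0.093 (SE), with 9.04, 9.10, 9.11 and 8.91 against 9.68, 9.38, 9.14 and 9.38. Kif20a, a kinesin of cytokinesis, differed by 0.33 ± 0.101 (SE). Array 1 of NNK week 9 was the highest NNK array for Ccna2, Cenpf, Ccnb2 and Kif20a.

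Of the list's other members, named here after their values were seen, the kinase Aurkb differed by 0.38, the ubiquitin-conjugating enzyme Ube2c by 0.36, the division marker Mki67 by 0.36, the anaphase activator Cdc20 by 0.32, the ribonucleotide reductase subunit Rrm2 by 0.28, the spindle factor Tpx2 by 0.26, the mitotic entry gene Cdca3 by 0.24 and the helicase subunit Mcm5 by 0.23. Those 8 complete the 12 whose groups did not overlap. Genes of the replication machinery lay at different places in the list. Pcna, the sliding clamp of DNA polymerase, differed by 0.0079 and the ribonucleotide reductase subunit Rrm1 by 0.11, and the helicase subunits differed by 0.0064 for Mcm7, 0.047 for Mcm4, 0.048 for Mcm3, 0.11 for Mcm6 and 0.17 for Mcm2, beside the 0.23 of Mcm5. Histone genes, a separate list of 9 tested of 16, were all higher, with a median of 0.16 and no member without overlap. Over all genes tested 1.87% were without overlap in either direction.

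The mean level over the proliferation list was 8.34 and 8.28 on the untreated arrays of week 9 and 8.32 and 8.26 on those of week 12. It was 8.72 and 8.44 on the NNK arrays of week 9 and 8.33 and 8.57 on those of week 12. Array 1 of NNK week 12 fell inside the untreated range, so the groups overlap in the list mean. The median change was 0.28 at week 9, with 45 of 46 members above 0, and 0.17 at week 12, with 40 of 46.

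**Figure D2:**
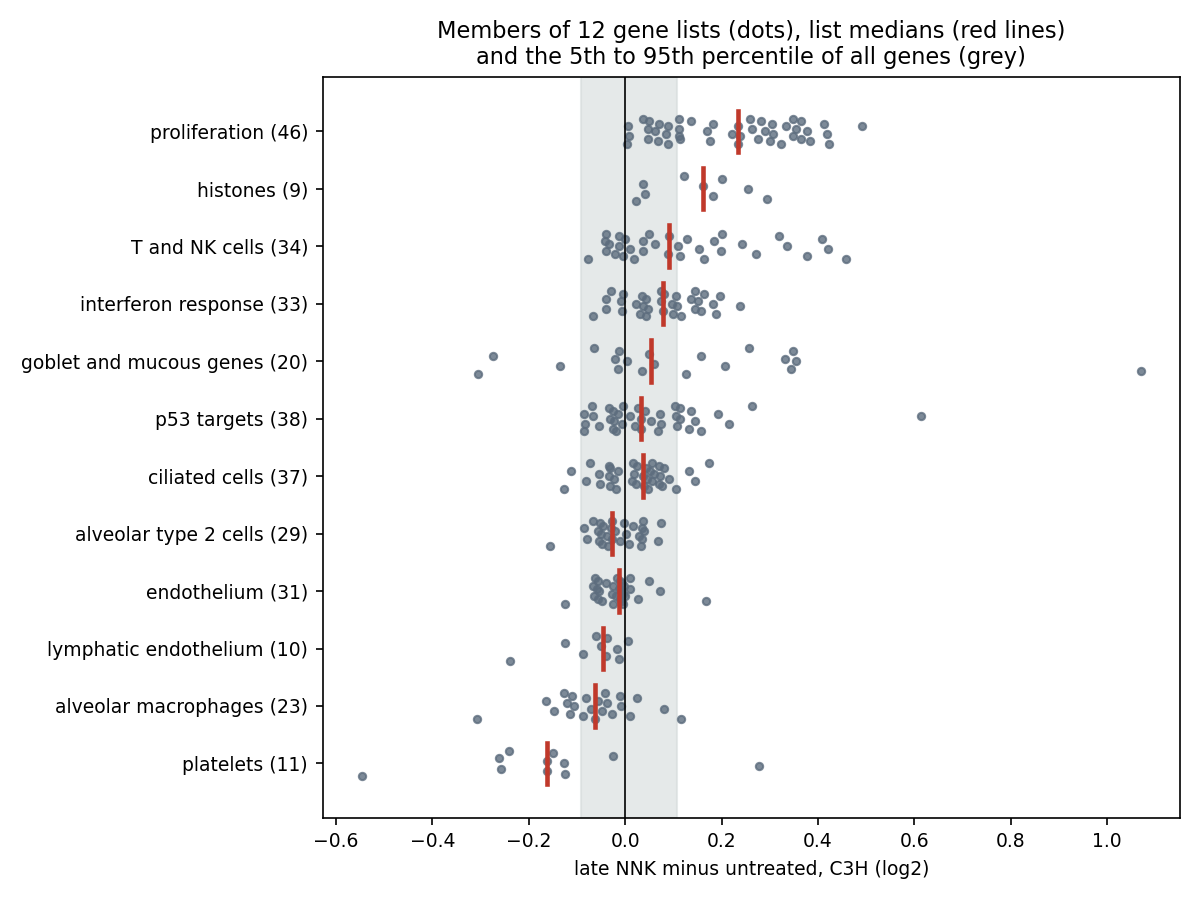
Late NNK change (horizontal axis, log2) of each tested member of 12 gene lists, with the number tested in brackets, the list median as a red line and the 5th to 95th percentile of all genes in grey. All 46 proliferation genes lie to the right of 0 with a median of 0.23, while 10 of 11 platelet genes lie to the left with a median of -0.16.

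Among T and NK cell genes, 24 of the 34 tested, of 51 listed, were higher after NNK and 10 were lower, where 50.8% of all genes were higher. None passed the test. The median was 0.090, and the groups of 6 members did not overlap, all higher, where 0.976% of all genes lay higher in that way. The list mean on array 1 of untreated week 12, 8.72, was below the 8.84 to 8.86 of the other untreated arrays, and without that array the median was 0.070. Array 1 of NNK week 9, at 8.83, fell inside the untreated range, so the groups overlap in the list mean. Nkg7, a granule protein of NK and CD8 T cells, had 9.86, 9.83, 9.54 and 9.81 on the untreated arrays and 9.99, 10.22, 10.16 and 10.29 on the NNK arrays, a difference of 0.41 ± 0.090 (SE) with an adjusted p of 0.702 in limma. Klrd1, the CD94 subunit of NK receptors, had 9.13, 9.21, 8.70 and 9.04 without NNK and 9.23, 9.72, 9.45 and 9.50 with it, a difference of 0.46 ± 0.115 (SE). Array 1 of untreated week 12 was the lowest array for both genes, and array 1 of NNK week 9 lay closest to the untreated range.

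Klrc1, the NKG2A partner of CD94, is not in the list and differed by 0.39 ± 0.080 (SE), with 7.47, 7.62, 7.38 and 7.50 against 7.87, 8.06, 7.78 and 7.82. The interleukin-2 receptor chain Il2rb differed by 0.33 ± 0.085 (SE) and the chemokine Ccl5 by 0.42 ± 0.104 (SE), Ccl5 with overlap. Further members without overlap, named after their values were seen, were the granule genes Gzmb with 0.27 and Prf1 with 0.24 and the NK receptor Ncr1 with 0.38. The T cell marker Cd3e overlapped, at 9.38 to 9.97 with NNK and 9.37 to 9.60 without it. Over the whole list the changes ran from -0.078 to 0.46. None of these genes passed the test. The list's median was 0.038 without array 2 of NNK week 9 and 0.14 without array 1 of that group. In bulk lung, more cells of a type and more RNA per cell cannot be told apart.

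For Nkg7, Klrd1, Klrc1 and Il2rb the early weeks and the other strain were set beside these values. The mean change over weeks 3 and 6 in C3H was -0.072 for Nkg7, -0.11 for Klrd1, -0.052 for Klrc1 and -0.052 for Il2rb. In late A/J lung it was 0.0018 for Nkg7, -0.088 for Klrd1, 0.037 for Klrc1 and 0.16 for Il2rb. On untreated C3H arrays of weeks 0, 3 and 6, Klrd1 was at 9.19 to 9.50 and Nkg7 at 9.62 to 10.28. Klrc1 was at 7.53 to 7.82 and Il2rb at 8.56 to 9.06 on those arrays. For each gene this range overlapped that of the late NNK arrays. The late untreated arrays of Klrd1, at 8.70 to 9.21, lay mostly below its range of weeks 0, 3 and 6. The late minus early difference was 0.48 ± 0.127 (SE) for Nkg7 and 0.56 ± 0.162 (SE) for Klrd1, both with an adjusted p of 0.879 in limma. The C3H minus A/J difference was 0.41 ± 0.266 (SE; adjusted p = 0.749) for Nkg7 and 0.54 ± 0.226 (SE; adjusted p = 0.573) for Klrd1, so none of these differences passed.

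The other immune lists were described in the same way. Interferon-response genes were higher for 26 of 33 tested members with a median of 0.078, and without array 2 of untreated week 9 that median was 0.037. Usp18, a brake on interferon signalling, differed by 0.19 ± 0.064 (SE) and the antiviral synthetase Oas3 by 0.15 ± 0.050 (SE), both with overlap. Neutrophil genes were higher for 13 of 17 and lower for 4, with a median of 0.11, which was 0.030 without array 1 of NNK week 12. The members of smallest p were Ltf with 1.07, Retnlg with 0.32, S100a9 with 0.19 and Mmp8 with 0.17. Groups did not overlap for 1 higher member, Ltf, and for 1 lower member, where 0.976% and 0.889% of all genes lay so. Alveolar macrophage genes were lower for 19 of 23 with a median of -0.063, which lay between -0.077 and -0.064 over the 8 fits that leave out 1 array. Chil3, a chitinase-like protein of these cells, had 9.74, 9.65, 10.10 and 9.76 without NNK and 9.47, 9.62, 9.36 and 9.57 with it, a difference of -0.31 ± 0.102 (SE). Siglecf, a surface marker of the same cells, differed by 0.12 in the other direction.

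B and plasma cell genes went opposite ways at the weeks, with 24 of 26 higher and a median of 0.13 at week 9 and 2 of 26 higher and a median of -0.19 at week 12. The late median was -0.023, and it was 0.056 without array 1 of NNK week 9 and -0.095 without array 2 of that group. Vpreb3, a chaperone of the B cell receptor, had 9.67, 9.58, 9.48 and 9.57 without NNK and 9.44, 9.32, 9.31 and 9.20 with it, a difference of -0.26 ± 0.065 (SE) with no overlap. The medians were 0.052 for 22 genes of monocytes and interstitial macrophages, -0.041 for 20 of dendritic cells and MHC class II, 0.032 for 14 of alternative activation, 0.023 for 12 of MHC class I and peptide loading and -0.020 for 6 of eosinophils and mast cells. The sign of 4 of these medians turned when 1 array was left out, to -0.0017 for monocytes without array 1 of NNK week 12, to 0.0060 for dendritic cells without array 1 of NNK week 9, and, without array 2 of NNK week 12, to -0.026 for alternative activation and -0.023 for MHC class I. Each of these 5 lists had 0 members past the threshold, and 1 member without overlap among them all, Chil3 of the alternative activation list. Over all genes tested 1.87% were without overlap, so this count does not set the lists apart.

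Platelet genes, described after their values were seen, were lower for 10 of 11 tested members with a median of -0.16. Ppbp, the platelet basic protein chemokine, had 11.53, 11.82, 11.25 and 11.27 without NNK and 11.16, 10.58, 11.08 and 10.86 with it. The difference was -0.55 ± 0.121 (SE), with an adjusted p of 0.702 in limma and no overlap. The integrin chain Itgb3 differed by -0.24, the glycoprotein Gp9 by -0.26 and the calmodulin-binding protein Nrgn by -0.26, each with overlap, and Thbs1, which other lung cells also express, by 0.28. The list median was -0.28 at week 9 and -0.016 at week 12, and without array 2 of NNK week 9 the late median was -0.10. Red cell genes were lower for 6 of 7 with a median of -0.049.

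Lymphatic endothelial genes were lower for 9 of 10 with a median of -0.046, and this median lay between -0.018, without array 1 of NNK week 9, and -0.082, without array 2 of that group. Mmrn1, multimerin 1, which lymphatic endothelium and platelets both make, had 9.50, 9.53, 9.55 and 9.37 without NNK and 9.26, 9.25, 9.27 and 9.22 with it. The difference was -0.24 ± 0.046 (SE), with an adjusted p of 0.569 in limma and no overlap. On untreated C3H arrays Mmrn1 was at 9.19 and 9.26 at week 0, near the late NNK arrays, and at 9.40 to 9.54 at weeks 3 and 6. Reln, reelin, differed by -0.12 ± 0.046 (SE) without overlap. The lymphatic receptor Flt4 differed by -0.017 and the hyaluronan receptor Lyve1 by -0.051, so the lower level of Mmrn1 was not shared by these markers to the same size. Endothelial genes in general were lower for 25 of 31 with a median of -0.014. They went opposite ways at the weeks, with 3 of 31 higher at week 9 (median -0.074) and 25 of 31 at week 12 (median 0.028). Without array 2 of untreated week 12 the late median was 0.0021, with 16 of 31 higher. Vwf, the von Willebrand factor, differed by -0.12 ± 0.058 (SE) without overlap, from -0.23 at week 9 and -0.016 at week 12. Its highest NNK array, at 12.019, lay just below its lowest untreated array, at 12.029, and array 1 of NNK week 9 was lowest, at 11.685. Apln, the peptide apelin, differed by 0.17 ± 0.059 (SE).

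**Figure D3:**
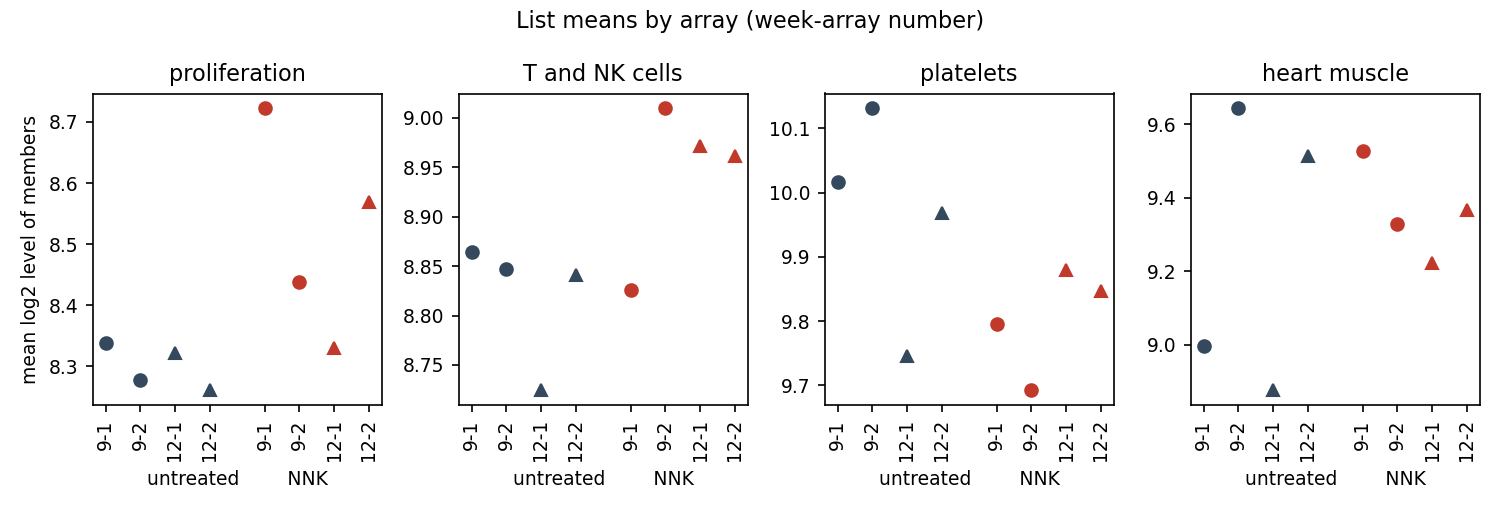
Mean log2 level of the tested members of 4 gene lists (vertical axis) on each of the 8 late C3H arrays, labelled by week and array number, untreated in dark blue and NNK in red. Proliferation is highest on array 1 of NNK week 9 at 8.72, and the heart muscle mean is lowest on array 1 of both untreated groups, at 9.00 and 8.88.

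Among airway epithelial lists, mucous and secretory genes held the largest single difference. Of 20 tested goblet and mucous genes 13 were higher with a median of 0.054. The median was -0.0033, with 9 of 20 higher, without array 1 of untreated week 9, and 0.11 without array 2 of NNK week 12. Beside the 0.976% and 0.889% of all genes, groups did not overlap for 4 that were higher and 1 that was lower, the antibody transporter Pigr with -0.31, named after its value was seen. Ltf, which encodes the iron-binding protein lactotransferrin of glands and neutrophil granules, had 6.70, 7.54, 6.49 and 7.34 without NNK and 8.41, 8.02, 7.63 and 8.29 with it. The difference was 1.07 ± 0.207 (SE), or 2.10-fold, with an adjusted p of 0.569 in limma. Array 1 of untreated week 9 and array 1 of untreated week 12 were the low ones among the untreated arrays. Those same arrays had the lowest heart muscle means, 9.00 and 8.88 where the other 6 lay at 9.22 to 9.64, and the part of tissue sampling in the Ltf difference was not tested. On untreated C3H arrays of weeks 0, 3 and 6 Ltf was at 7.55 to 8.28, above the late untreated arrays and near the late NNK arrays. Its NNK change was 0.50 at week 3 and -0.87 at week 6. The late untreated levels also lay below 7.545, the level of the filter on dim probe sets. Cxcl17, a mucosal chemokine, differed by 0.33 ± 0.072 (SE), with 9.09, 9.00, 9.08 and 9.25 against 9.54, 9.48, 9.47 and 9.27. The membrane mucin Muc4 differed by 0.16 ± 0.048 (SE) and Clca3b, a member of a secreted airway regulator family, by 0.26 ± 0.085 (SE), both without overlap.

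Club cell genes were lower for 15 of 23 with a median of -0.026. Chad, the matrix protein chondroadherin, had 9.65, 9.76, 9.54 and 9.66 without NNK and 9.43, 9.48, 9.06 and 9.26 with it, a difference of -0.35 ± 0.079 (SE) with an adjusted p of 0.797 in limma. Aox3, an aldehyde oxidase, had 11.39, 11.35, 11.16 and 11.22 without NNK and 11.02, 11.14, 11.09 and 10.98 with it, a difference of -0.22 ± 0.050 (SE). Scgb1a1, the main secretory protein of club cells, differed by -0.074 ± 0.051 (SE) with overlap. So the markers that were lower without overlap, Chad and Aox3, did not include the cell type's defining gene.

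Ciliated cell genes were higher for 24 of 37 with a median of 0.038, from 32 of 37 higher at week 9 (median 0.075) and 10 of 37 at week 12 (median -0.015). The late median was 0.0029 without array 1 of untreated week 12 and 0.0081 without array 1 of NNK week 9. The list was led by Cfap52 with 0.17 ± 0.054 (SE) and the cadherin Cdhr4 with 0.15 ± 0.061 (SE), both without overlap, while the dynein chain Dnaic1 differed by -0.13 ± 0.046 (SE). Alveolar type 2 genes were lower for 18 of 29 with a median of -0.027, which was 0.0036 without array 1 of NNK week 9. Hc, complement C5, differed by -0.16 ± 0.044 (SE) without overlap, and Dram1 and Chil1 were lower without overlap by -0.053 and -0.067. Alveolar type 1, basal and neuroendocrine lists had 0 members without overlap among 20, 9 and 4 tested. Over all genes tested 1.87% were without overlap, so a count of 0 in lists this short says little.

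Xenobiotic enzymes, which include those that activate NNK, were lower for 20 of 31 with a median of -0.023, and 6 members had an unadjusted p under 0.05, where 3.8% of all genes did. The largest difference was -0.55 ± 0.156 (SE) for Cyp4a12b, a fatty acid hydroxylase, with 8.27, 8.98, 8.17 and 8.54 without NNK and 8.39, 7.66, 7.88 and 7.83 with it. Its array 1 of NNK week 9 lay within the untreated range, so the groups overlap. The 3 members without overlap, where 0.889% of all genes lay lower in that way, Aox3, Cyp4b1 with -0.11 and Ces1d with -0.086, were all lower. Of these Cyp4b1, a lung monooxygenase, and the carboxylesterase Ces1d were named after their values were seen. NRF2 targets were higher for 19 of 29 with a median of 0.024, with the quinone reductase Nqo1 at 0.16 ± 0.099 (SE). That median was 0.0039 without array 1 of untreated week 12. The AhR battery had 3 of 7 higher and a median of -0.0055, which was 0.025 without the same array. DNA repair genes were higher for 18 of 28 with a median of 0.017, which was -0.0094 without array 2 of NNK week 12. The lists of NRF2, AhR and DNA repair had no member without overlap and 0 at an unadjusted p under 0.05 in limma. Over all genes tested 1.87% were without overlap in either direction, so the absence of such members in short lists says little. Heat shock genes were lower for 9 of 11 with a median of -0.075, with no member without overlap. Fibroblast and matrix genes were higher for 27 of 39 with a median of 0.022 and no member without overlap, from 13 of 39 higher at week 9 (median -0.048) and 31 of 39 at week 12 (median 0.085), and the late median was -0.00074 without array 2 of NNK week 12.

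Lists of other tissues and of handling showed how single arrays weighed. Heart muscle genes were higher for 18 of 20 with a median of 0.11, but the median was -0.036 without array 1 of untreated week 9 and -0.028 without array 1 of untreated week 12. Immediate early genes were higher for 19 of 20 with a median of 0.093, and the median was -0.038 without array 2 of untreated week 9 and -0.019 without array 1 of NNK week 12. Liver genes were highest on both NNK arrays of week 9, with list means of 8.74 and 8.80 beside 8.07 to 8.41 on the other 6 arrays. Alb, the liver's albumin gene, was at 11.66 and 11.42 there and at 8.11 to 10.33 elsewhere. The part of these differences in the other results was not tested.

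Over all genes, 146 were higher and 133 lower without overlap between the groups, the 0.976% and 0.889% given above. In the early C3H arrays, which share no array with the late ones, 64.4% of the 146 were higher after NNK, beside 43.8% of all genes, and 73.7% of the 133 were lower, beside 56.2% of all genes. In late A/J lung 69.9% of the 146 were higher, beside 53.6% of all genes, and 53.4% of the 133 were lower, beside 46.4% of all genes. Further genes of small p that were lower without overlap were Mmp7, matrilysin, with -0.25 ± 0.062 (SE), Triml2 with -0.30 ± 0.080 (SE), Gpnmb, a macrophage and melanocyte glycoprotein, with -0.21 ± 0.057 (SE), Cyp4f15 with -0.18 ± 0.049 (SE) and the copper transporter Atp7b with -0.23 ± 0.063 (SE). Cracr2a, a calcium-channel regulator, had 10.35, 10.29, 10.22 and 10.30 without NNK and 10.01, 10.21, 10.21 and 10.15 with it, a difference of -0.15 ± 0.051 (SE).

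The weeks were then taken apart. At week 9 Psrc1 rose by 0.70 ± 0.077 (SE; adjusted p = 0.00467 in limma) and was the 1 gene that passed, 0.00669% of those tested, with 545 genes (3.64%) at an unadjusted p under 0.05. This call was lost without array 2 of untreated week 9 and without array 1 of NNK week 9, each leaving 0 genes. Rgs18 joined Psrc1 without array 1 of untreated week 9, and Mir181b-1 joined it without either NNK array of week 12. At week 12 limma called 0 genes (0%), with 381 (2.55%) at an unadjusted p under 0.05, and the Psrc1 difference was 0.53 ± 0.077 (SE; adjusted p = 0.130). It was called there when either NNK array of week 9 was left out, and Sh3rf1 was called without array 1 of NNK week 12. Across the 14953 genes, which are not independent and share the 8 arrays' normalization, the changes of both weeks correlated with r = 0.106 and rho = 0.1.

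**Figure D4:**
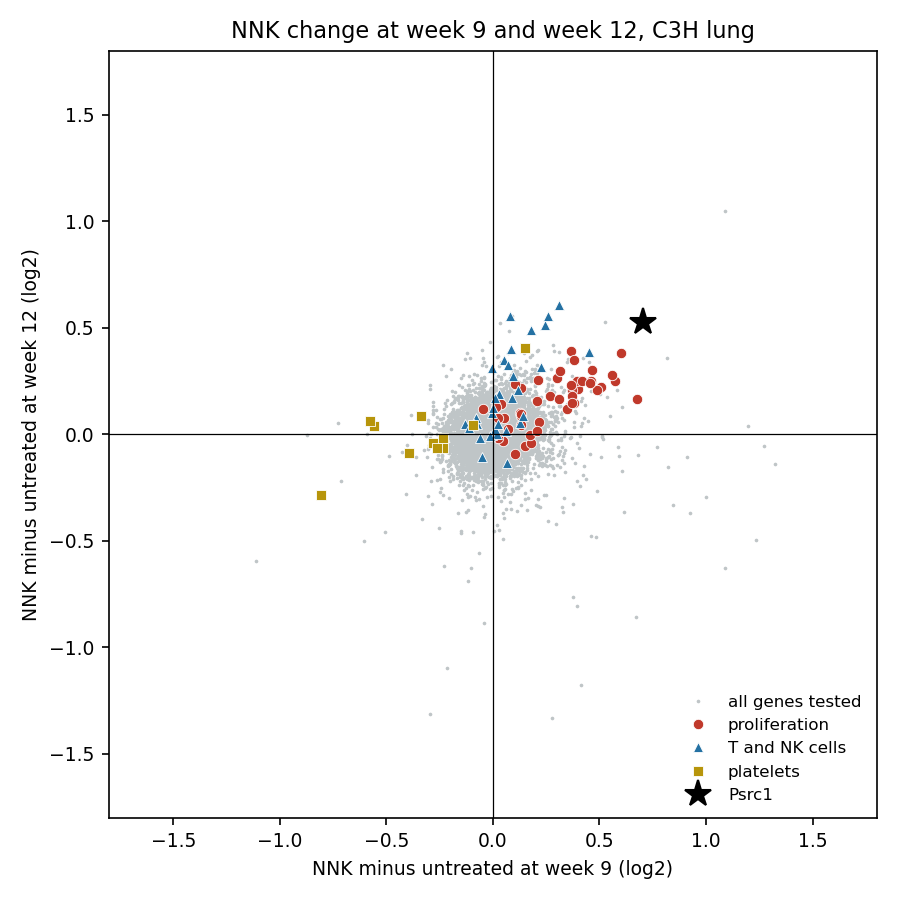
NNK change at week 9 (horizontal) against week 12 (vertical), both log2, for the 14953 genes tested in grey, with proliferation genes in red, T and NK cell genes in blue, platelet genes in yellow and Psrc1 as a star. Psrc1 lies at 0.70 and 0.53, proliferation genes lie mostly above 0 on both axes, and platelet genes spread along the week 9 axis.

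The difference between both weekly changes was tested for every gene, and limma called 0 genes (0%), with 340 (2.27%) at an unadjusted p under 0.05. The smallest p belonged to Mir181b-1, whose probe set reads the microRNA's precursor region, and the precursors of Mir30c-2 and Mir30e differed in the same direction. The 5p mature microRNAs of these precursors are shown because a shared seed defines a microRNA family, with the seed, bases 2 to 8, in capitals, from RefSeq on GRCm38.p6.
miR-181b-5p: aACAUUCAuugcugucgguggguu
miR-30c-5p: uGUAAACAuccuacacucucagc
miR-30e-5p: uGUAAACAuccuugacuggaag
The miR-30 pair share their seed. Mir181b-1 had 7.79 and 7.26 on the untreated arrays of week 9, 8.76 and 8.76 on the NNK arrays of week 9, 8.41 and 8.59 on the untreated arrays of week 12 and 8.35 and 7.66 on the NNK arrays of week 12. Both untreated arrays of week 9 were low and so was array 2 of NNK week 12, so that the week 12 minus week 9 difference was -1.73 ± 0.280 (SE; adjusted p = 0.385). The same difference was -0.98 ± 0.191 (SE) for Mir30c-2 and -1.71 ± 0.413 (SE) for Mir30e. For Mir30e array 2 of NNK week 12 was at 6.61 and array 1 at 7.90. Without array 1 of NNK week 12, 7 genes were called, and 5 of them were the microRNA precursors Mir30e, Mir181b-1, Mir30c-2, Mir15a and Mir107.

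The late response was next set against the early one of weeks 3 and 6 in the same strain, from separate arrays. Early, 24 genes (0.161%) passed in limma, 12 in each direction, against 1 late. Psrc1 rose at week 3 by 0.97 ± 0.077 (SE; adjusted p = 4.2e-05) and at week 6 by 0.94 ± 0.077 (SE; adjusted p = 0.000129), above its late difference. Its late minus early difference was -0.34 ± 0.077 (SE), with an adjusted p of 0.879, so this difference did not pass. An early rise of 0.47 was found for Dglucy (adjusted p = 0.000126) and one of 0.33 for Ccng1 (adjusted p = 0.0121). Their late differences were smaller, and the late minus early test gave an adjusted p of 0.879 for each.

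**Figure D5:**
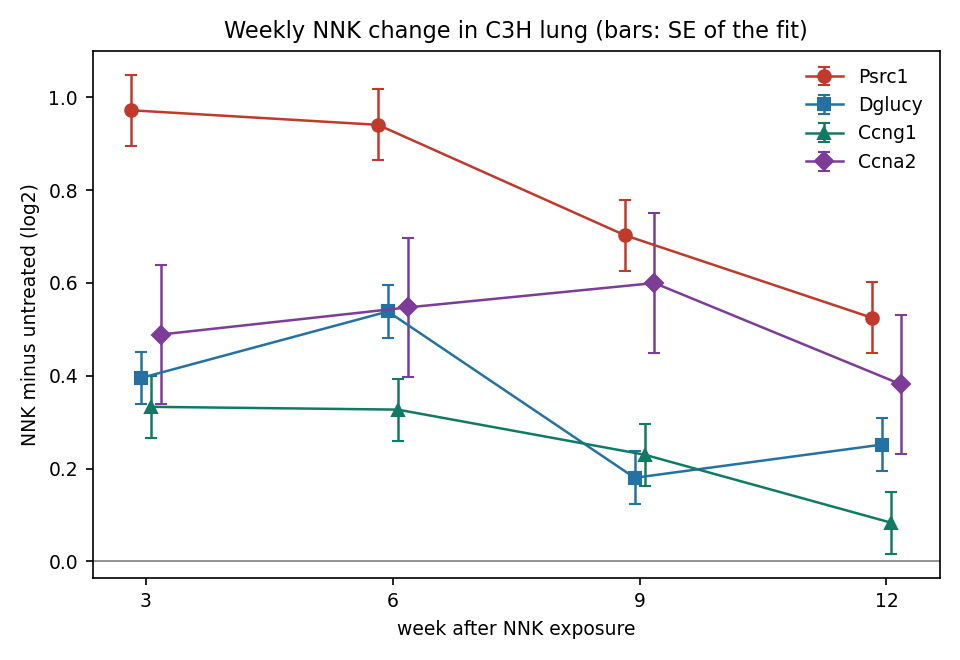
NNK minus untreated (vertical axis, log2) at weeks 3, 6, 9 and 12 after exposure in C3H lung for Psrc1, Dglucy, Ccng1 and Ccna2, with bars for the SE of the fit. Psrc1 lies at 0.97, 0.94, 0.70 and 0.53, and Ccna2 at 0.49, 0.55, 0.60 and 0.38.

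Proliferation genes were higher early too, with 46 of 46 above 0 and a median of 0.27 at weeks 3 and 6. Ccna2 differed by 0.49, 0.55, 0.60 and 0.38 at weeks 3, 6, 9 and 12, each ± 0.15 (SE). Its mean level over 2 untreated arrays was 9.37 at week 3 and 8.60 at week 12, a difference that was not tested here. Platelet genes had a median of -0.17 early and -0.16 late. The test of late minus early called 0 genes (0%) in limma, with 834 (5.58%) at an unadjusted p under 0.05. Saa3, an acute phase protein, came closest, at -2.40 ± 0.339 (SE; adjusted p = 0.0898). It was at 13.33 and 11.76 on the NNK arrays of week 3 and at 7.59 to 7.78 on the 4 late NNK arrays, where the untreated late arrays had 7.50 to 7.99.

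In the last comparison the late change in C3H was set against that in A/J, in 1 fit of all 36 arrays. Limma called 268 genes (1.79%) in late A/J lung, 201 higher (1.34%) and 67 lower (0.448%). This fit has 18 residual degrees of freedom. The 1 gene called in late C3H lung came from the fit of C3H arrays alone, with 9, so the 2 counts are not from like tests. The difference between the strains passed for 4 genes (0.0268%), with 1152 (7.7%) at an unadjusted p under 0.05, and all 4 had the lower change in C3H. For C6, a component of the complement membrane attack complex, the C3H arrays had 10.04, 9.95, 10.08 and 9.82 without NNK and 9.88, 9.82, 9.71 and 9.77 with it, and the A/J arrays 9.02, 8.95, 8.95 and 8.80 without and 9.24, 9.55, 9.56 and 9.50 with it. The difference of changes was -0.71 ± 0.123 (SE; adjusted p = 0.0471). In A/J every NNK array was above every untreated array. In C3H the NNK arrays overlapped the low end of the untreated range.

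Mmrn1, lower after NNK in C3H, had 8.18, 8.02, 8.48 and 8.42 without NNK in A/J and 8.46, 8.49, 8.54 and 8.60 with it, and the difference of changes was -0.49 ± 0.078 (SE; adjusted p = 0.0331). Muc4 rose by 0.69 in A/J and differed by 0.16 in C3H, a difference of -0.54 ± 0.094 (SE; adjusted p = 0.0471). The kinase gene Stk32a differed by -0.045 in C3H and rose by 0.34 in A/J, a difference of -0.38 ± 0.069 (SE; adjusted p = 0.0477). These calls rest on few arrays: leaving out 1 of the 16 late arrays gave between 0 and 39 called genes, with 0 genes in 12 of the 16 fits, 39 without array 1 of untreated A/J week 9 and 7 without array 2 of NNK A/J week 12. For Psrc1 the strains' late changes, 0.61 in C3H and 0.60 in A/J, differed by 0.014 ± 0.130 (SE; adjusted p = 0.988), and for Ltf, which rose by 1.44 in A/J, by -0.37 ± 0.340 (SE; adjusted p = 0.840). Over all genes the late changes of both strains correlated with r = 0.147 and rho = 0.111, as a description across genes that share the normalization.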

How the data were processed

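Arrays were made from total lung RNA, and the values used are the deposited intensities, 1 per probe set and array, on a linear scale. The submitters' processing notes name PLIER and Affymetrix Expression Console as what the authors used; versions, background settings and genome build are not given in the sources used here. All 36 arrays (18 groups of 2) were turned to log2(intensity + 16), which understates changes of dim genes, and quantile-normalized. The probe set of highest mean was kept for each of 19938 genes with 1 symbol, and genes whose mean level over 36 arrays reached the 25th percentile were tested. Of 21789 probe sets with 1 symbol, 21698 matched a RefSeq gene table (GRCm38.p6, used for names), and 0 symbols changed.

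The C3H contrasts came from a limma 3.58.1 fit in R 4.3.3 of the 9 C3H group means (18 arrays, 9 residual degrees of freedom), each week's NNK arrays against its untreated arrays, with Benjamini-Hochberg adjustment at 0.05. The strain contrast used all 36 arrays. The script was tested on simulated data. The 57 gene lists, the groups and the rule for naming genes were chosen with earlier results of these data known. The rule named passing genes, the 10 higher and 10 lower genes of smallest p without overlap, up to 4 of smallest p per described list, 3 and 3 per difference contrast that called a gene, and Psrc1, Ccng1, Dglucy and Cracr2a; the strain contrast's 3 of positive sign, Nup210l, Prss12 and Tmeff1, did not pass, with adjusted p from 0.196 to 0.231. All other genes and lists described, apart from tissue markers, were chosen after their values were seen. Lists were described by counts and medians without a test. Alternatives covered normalization, pseudocount (1 and 64), filter, arrays that give the spread, variance moderation, array weights, a block for array number, and each array left out. Figures were drawn with matplotlib in Python.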

Additional observations from a re-analysis of the deposited data

Results flagged for a closer look

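In 106 groups of 4 arrays examined, of the named genes and list means, 6 had an array far from the other 3, where chance gives about 1 in 20. Psrc1 was at 8.70 on array 1 of NNK week 9 and at 8.44 to 8.46 on the other NNK arrays, a gap of 0.944 of the range. Nkg7 was at 9.54 on array 1 of untreated week 12, a gap of 0.838, and the mean of the T and NK cell list was lowest on the same array, a gap of 0.831. The alternative activation list was highest there, a gap of 0.843. The alveolar type 1 list was highest on array 1 of untreated week 9, a gap of 0.869. The MHC class I list was highest on array 2 of NNK week 12, at 10.80 beside 10.60 to 10.63, a gap of 0.842.

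The late NNK change differed between C3H and A/J by the interaction test in limma for C6 (-0.71), Mmrn1 (-0.49), Muc4 (-0.54) and Stk32a (-0.38). The adjusted p of this test ran from 0.0331 to 0.0477, and the calls were lost on the deposited scale and with no filter.

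Probe sets with no or several gene symbols were outside the comparisons: 7814 were tested in the same way. An unnamed one, 10359593, fell by 0.41 (adjusted p = 0.0279 in limma), from 10.85 to 10.99 on the untreated arrays to 10.41 to 10.58 on the NNK arrays. One with several symbols, 10402409, rose by 0.58 (adjusted p = 0.0279), but its week 9 levels were 9.59 and 9.50 with NNK against 8.47 and 8.37 without, and at week 12 all 4 arrays lay at 8.29 to 8.40. Another unnamed one, 10531149, rose by 0.85 at week 9 (adjusted p = 0.0428).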

How the results depend on the processing

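Psrc1 kept its direction and passed in all 18 alternative fits that tested it, with a change of 0.53 to 0.68 and an adjusted p of 5.05e-05 to 0.0403; the filter at the 50th percentile leaves it out and called 0 genes in the late and in the week 9 comparison. The other genes named by smallest p or by the 4-week contrast kept their sign in each fit that tested them and passed in none. Week 9 called 2 genes with no filter, 0 from the 8 late arrays alone and 0 with the spread of all 36 arrays. Late minus early called 1 gene, Saa3, on the deposited scale and with array weights (1). The strain difference called 0 genes on the deposited scale, 1 with each strain normalized alone, 0 with no filter, 8 from the 16 late arrays and 2 with the replicate block. The deviations of same-numbered arrays correlated at -0.292 to 0.243 between the late groups, with both signs present. With so few arrays these values cannot decide whether the numbers pair arrays. The lowest, -0.292, was between the NNK groups of weeks 9 and 12. The highest, 0.243, was between the untreated groups of weeks 9 and 12, whose array 1 had the lower heart muscle mean at each week. With that block the late comparison called 1 gene (Psrc1, adjusted p = 0.000542), and it changed no other call in C3H. Leaving out 1 array gave 1 to 1 genes late, 0 to 2 at week 9, 0 to 1 at week 12, 0 to 7 for week 12 minus week 9, 0 to 0 for late minus early, 0 to 39 for the strain difference, and 207 to 515 higher and 211 to 402 lower genes without overlap, where 3 arrays against 4 overlap less by construction. Late minus early could not be run on the 8 late arrays alone. List medians with 1 array left out were added after seeing the data. With 2 arrays a group, the precision rests on array number, and genes near background on the array have understated changes.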
